A study of Saccharomyces cerevisiae with 12 samples.

Results

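The genes of the proteasome were described in budding yeast (Saccharomyces cerevisiae) whose Rap1 or Abf1 protein had been inactivated by heat. Genes were taken by symbol: the names RPN, RPT and PRE followed by a number, PUP1 to PUP3, and SCL1, UMP1, ECM29 and SEM1. This gave 37 genes of the 4687 features tested, and all 37 passed the filter on dim features. They comprise 14 genes of the 20S core particle, 19 genes of the 19S regulatory particle, 3 assembly or associated factors and RPN4, a transcription factor that carries the RPN name only by its symbol.

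The proteasome degrades proteins that carry a chain of ubiquitin. Its core particle is a barrel of outer rings of alpha subunits, which gate the entrance, and inner rings of beta subunits, some of which cut the substrate. The regulatory particle caps the barrel, with a base of ATPases that unfold substrates and a lid that removes ubiquitin. In yeast, most proteasome genes share a promoter element bound by Rpn4, itself a short-lived protein that the proteasome destroys.

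There were 12 arrays in 4 groups of 3. The groups were a temperature-sensitive (ts) rap1 mutant, the wild-type control of that mutant, a ts abf1 mutant, and the wild-type control of the abf1 mutant. All 4 groups, wild types included, grew at 25 C and were held at 37 C for 1 h before total RNA was isolated, so no comparison contains an array from unshifted cells. Per the labels the mutant proteins no longer bind DNA at the higher temperature. Both proteins are essential and bind DNA at many sites, Rap1 at ribosomal protein and glycolytic promoters, telomeres and silencers, and Abf1 at other promoters, silencers and replication origins. The labels name neither the alleles nor the strain backgrounds, nor whether replicates were separate cultures, so p-values measure the spread between these arrays, which may be technical.

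Values are MAS5 signals, a linear brightness per probe set, which the authors had scaled so that trimmed means lay between 1499.4 and 1499.7 in all 12 arrays. Every level is therefore relative to the rest of the RNA on that array. Fold changes are on the log2(signal + 13) scale, mutant over its own wild type, and a gene was called at a limma adjusted p under 0.05 over all 4687 features. Arrays with the same replicate number deviated together, so a fit with the number as a block is given beside the fit without it. The ratio of 3′ to 5′ signal of the ACT1 control, a sign of RNA quality, averaged 30.1 in rap1 ts arrays and 6.75 in their wild-type arrays (geometric means, n = 3 each, 2-sided exact permutation p = 0.1, the smallest possible here). It averaged 7.93 in abf1 ts arrays and 12 in their wild-type arrays (exact permutation p = 0.6). By array, it was 48.4, 20.1 and 28 in rap1 ts, against 18.2, 6.58 and 2.56 in its wild type. It was 32.7, 3.47 and 4.41 in abf1 ts, against 8.73, 11.4 and 17.4 in that wild type. The ratio of the SPT15 control averaged 15.9 in rap1 ts and 4.98 in its wild type (exact permutation p = 0.1). That of SRB4 averaged 228 and 46.4 (exact permutation p = 0.2). In abf1 ts, SPT15 averaged 6.46 against 5.7, while SRB4 averaged lower than in the wild type. The part of these ratios in the results below was not tested. The mutations act on the proteins, so the mutated genes' own transcripts are no check of the labels.

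Most proteasome genes were higher in the rap1 ts mutant than in its wild type, but by little. Of the 37 genes, 30 had a log2 fold change above 0 (81.1%, against 55.9% of all features), and the median was 0.31 against 0.09 for all features. In the fit without a block, 0 of the 37 were called, where 0.405% of all features were. At an unadjusted p under 0.05 there were 3 members, all higher, where 605 of all 4687 features were higher and 438 lower. With the replicate block, 4 genes rose (SEM1, ECM29, PRE9 and RPT2) and 0 fell. That is 10.8% of the members, below the 15.0% of all features called higher in the same fit. At an unadjusted p under 0.05, the blocked fit had 12 members higher and 0 lower, where 1154 of all 4687 features were higher and 762 lower. The 3 rap1 ts arrays lay above all 3 wild-type arrays for 8 members and below them for 0, against 16.1% of all features above and 10.5% below.

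**Figure D1:**
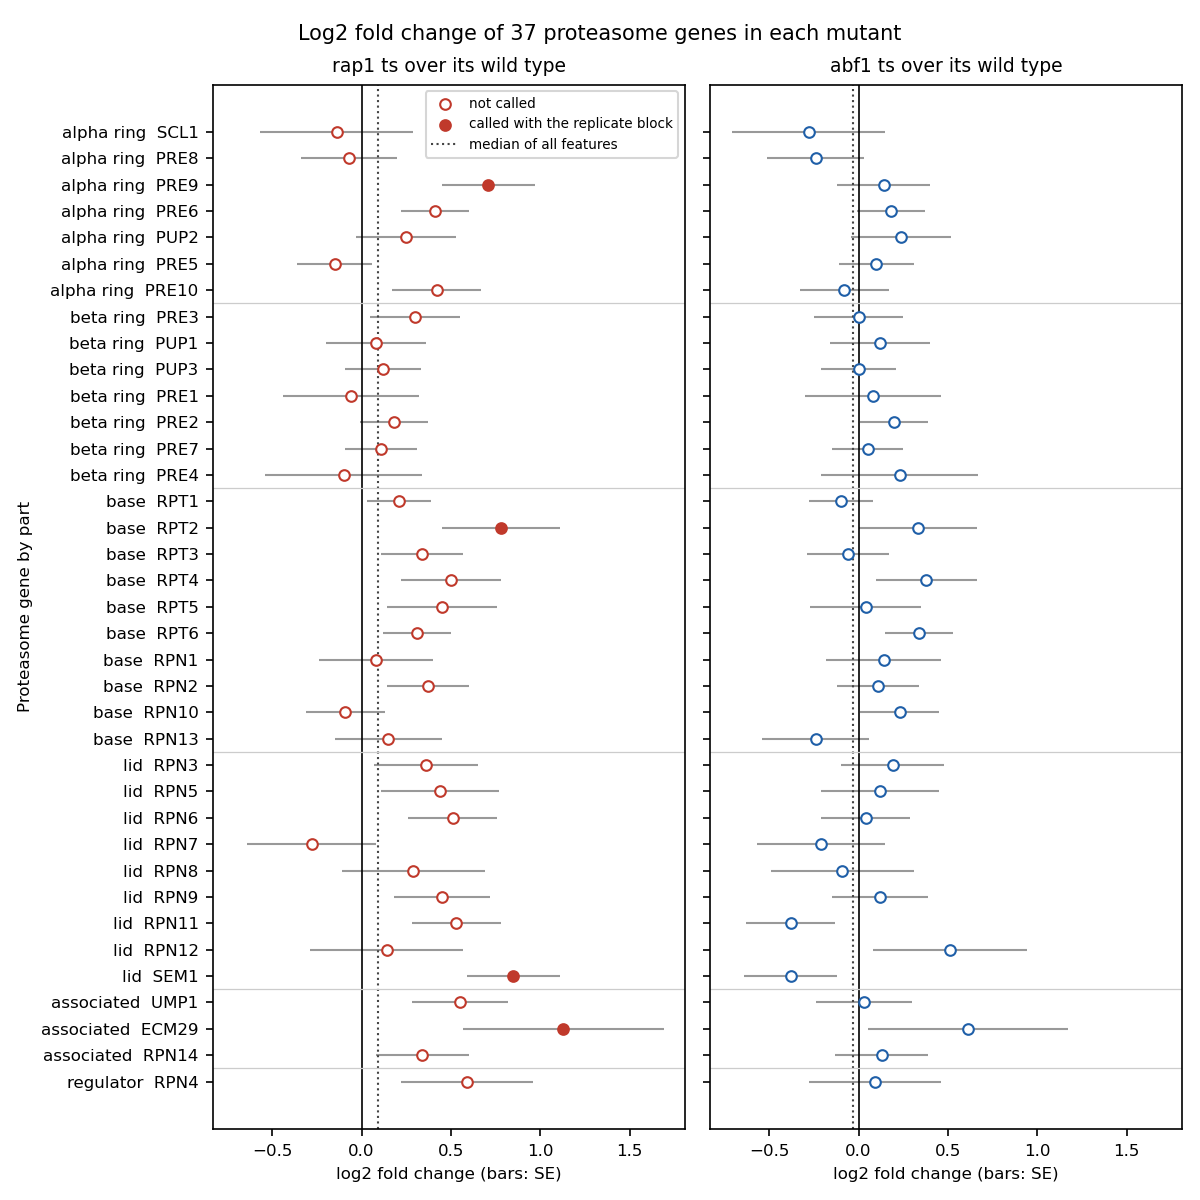
Log2 fold change (horizontal axis, bars are SE of the fit without a block) of each of the 37 proteasome genes (vertical axis, by part of the complex), rap1 ts over its wild type on the left and abf1 ts over its wild type on the right, 3 arrays per group. Filled points are the genes called with the replicate block (4 on the left, 0 on the right), and the dotted line is the median of all 4687 features.

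The difference was uneven between replicate pairs. The member median was 0.06 in pair 1, 0.61 in pair 2 and 0.20 in pair 3, with 22, 34 and 29 of the 37 genes above 0. The median of all features also varied, at -0.09, 0.28 and 0.13, with 2103, 2966 and 2791 of the 4687 above 0. The wild-type array of pair 2 had the lowest signal of all 12 arrays for 20 of the 37 genes (54.1%, against 26.5% of all features). Without that array the member median was 0.19 and 29 of 37 genes were above 0, beside a median of 0.01 for all features. Without pair 2, the blocked fit called ECM29 alone, and without pair 1 or pair 3 it called 0 members.

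SEM1 encodes the smallest lid subunit, an intrinsically disordered protein that also works in mRNA export. Its signal was 3633, 3175 and 2981 in the rap1 ts arrays, against 1916, 1356 and 2215 in the wild type. All mutant arrays lay above all wild-type arrays. The gene was 1.81-fold higher (log2 0.85, SE 0.26, limma adjusted p = 0.116 without the block and 0.0212 with it). In the abf1 ts arrays its signal was 2003, 1778 and 1678, against 2657, 1771 and 2816 in their wild type, so those groups overlapped. The abf1 log2 fold change was -0.38 (SE 0.26, adjusted p = 1, 0.842 with the block).

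ECM29 encodes a large adaptor that tethers the regulatory particle to the core. Its signal was 616, 451 and 1083 in the rap1 ts arrays, against 226, 168 and 692 in the wild type. The third array of each group was the brightest and the groups overlapped, but the mutant was higher in 3 of 3 pairs. The log2 fold change was 1.13, a 2.19-fold difference (SE 0.56, limma adjusted p = 0.247), and with the block the SE was 0.24 and the adjusted p 0.0114. In abf1 ts the signals of 412, 527 and 1009, against 264, 303 and 736 in the wild type, gave the highest abf1 fold change of all members (log2 0.61), again above 0 in 3 of 3 pairs. That value was not called (adjusted p = 1, 0.511 with the block). Of the 8 probe sets for this gene, only the one used here exceeded a signal of 377 on any array.

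PRE9 encodes an alpha subunit, the only one of its ring that yeast can lose and live. It had 8394, 5316 and 5490 in the rap1 ts arrays and 4265, 3001 and 4326 in the wild-type arrays, without overlap. Its log2 fold change was 0.71 (SE 0.26, limma adjusted p = 0.147, 0.0224 with the block of its own series and 0.0601 with a block shared by all 12 arrays). In abf1 ts arrays it had 4015, 5913 and 4988, against 3801, 4440 and 5262 in their wild type, a log2 fold change of 0.14 (adjusted p = 1).

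RPT2 encodes a base ATPase that opens the gate of the core. Its signals were 2263, 2021 and 2511 in rap1 ts arrays and 1191, 853 and 2187 in the wild type. The brightest wild-type array, of pair 3, lay within the mutant range. The log2 fold change was 0.78 (SE 0.33, limma adjusted p = 0.192, 0.0317 with the block). In abf1 ts the signals of 1857, 2275 and 2579, against 1488, 1586 and 2326 in the wild type, gave 0.33 (adjusted p = 1, 0.892 with the block).

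**Figure D2:**
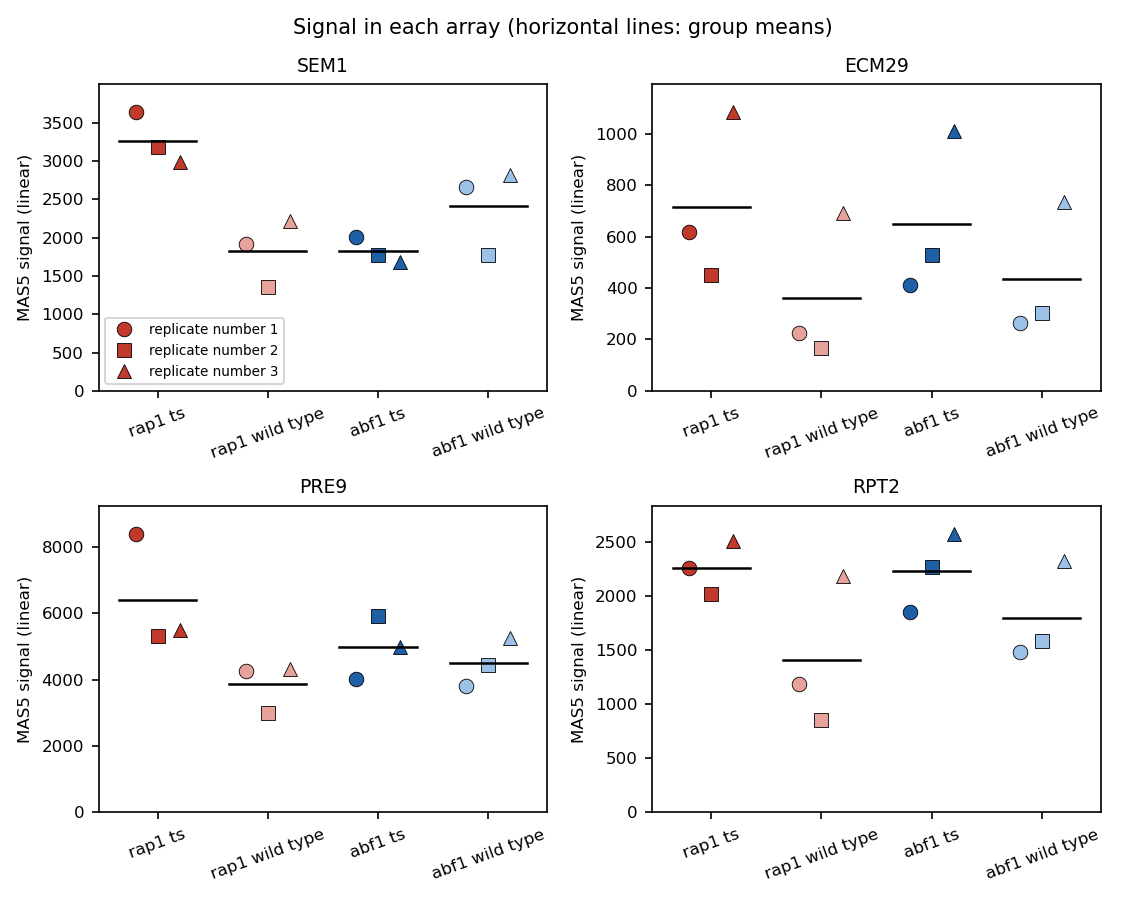
MAS5 signal (vertical axis, linear, from 0) of SEM1, ECM29, PRE9 and RPT2 in each of the 12 arrays by group (horizontal axis). Marker shapes are replicate numbers and lines are group means; the rap1 ts arrays of SEM1 and PRE9 lie above all 3 of their wild-type arrays, and the third array is the brightest of each group for ECM29.

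The transcription factor gene RPN4 was not called in either mutant. Its signal was 4872, 2910 and 3061 in the rap1 ts arrays, against 3303, 1675 and 2284 in the wild type. The groups overlapped, while the mutant was higher in 3 of 3 pairs. The log2 fold change was 0.59 (SE 0.37, limma adjusted p = 0.35, 0.0696 with the block). In abf1 ts it was 4420, 4173 and 1947, against 2753, 4231 and 2547 in the wild type, with a log2 fold change of 0.09 (adjusted p = 1) and no common direction across the pairs.

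Among the alpha ring genes, 4 of 7 lay above 0 in rap1 ts, with a median of 0.25, and PRE9 alone was called with the block. PRE5 had the lowest value of the ring, with 3717, 4686 and 5536 in rap1 ts, against 4912, 4706 and 5644 in its wild type (log2 -0.15, SE 0.21). SCL1 varied more between arrays than between groups, from 3151 to 7310 in rap1 ts, against 4034 to 7117 in its wild type (log2 -0.14, SE 0.43). PUP2 was at 0.25 (SE 0.28). In abf1 ts the ring's median was 0.10, with 4 of 7 genes above 0, SCL1 lowest at -0.28 and PUP2 highest at 0.24.

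The beta ring had the lowest median of the rings, base and lid in rap1 ts, 0.11, with 5 of 7 genes above 0 and 0 called by limma with or without the block. None of its 7 genes had an unadjusted p under 0.05 in either fit. Its active-site genes PRE3, PUP1 and PRE2 had log2 fold changes of 0.30, 0.08 and 0.18. PRE3 was the highest of the ring, at 5077, 6962 and 7154 in rap1 ts, against 4607, 4562 and 6391 in its wild type. As the mean over its 3 probe sets, though, its log2 fold change was -0.12. PRE4, a structural subunit, was the lowest (log2 -0.10, SE 0.44), with signals of 1406 to 4539 in rap1 ts, against 2099 to 4592 in its wild type. The beta ring in abf1 ts ran from 0 for PUP3 to 0.23 for PRE4, with a median of 0.08.

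In the base, which holds the RPT ATPases, the scaffolds RPN1 and RPN2 and the ubiquitin receptors RPN10 and RPN13, 9 of 10 genes were above 0 in rap1 ts. The median was 0.32, and RPT2 alone was called with the block. RPT4 had 3380, 3204 and 3648 in rap1 ts, against 1782, 2103 and 3679 in the wild type (log2 0.50, limma adjusted p = 0.294, 0.0883 with the block). RPN10 was the one base gene below 0, at 5000, 5625 and 6135 in rap1 ts, against 6215, 7161 and 4651 in its wild type (log2 -0.09, SE 0.22). RPN13 was at 0.15 (SE 0.30). In abf1 ts the median was 0.12, from -0.24 for RPN13 to 0.38 for RPT4, which was above 0 in 3 of 3 pairs (adjusted p = 1, 0.792 with the block).

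The lid, whose subunits include the ubiquitin-removing enzyme RPN11, had 8 of 9 genes above 0 in rap1 ts and a median of 0.44, and SEM1 alone was called with the block. RPN7, a scaffold subunit of the lid, was the exception and the lowest of all 37 genes. It had 1705, 1880 and 2893 in rap1 ts, against 1895, 2342 and 3773 in the wild type, and was lower in 3 of 3 pairs (log2 -0.28, SE 0.36, limma adjusted p = 0.65, 0.425 with the block). RPN12, whose incorporation completes the lid, had 1063, 1360 and 2627 in rap1 ts, against 1038, 1014 and 2717 in its wild type (log2 0.14, SE 0.43). The lid median in abf1 ts was 0.04, from -0.38 for SEM1 to 0.51 for RPN12.

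The 8 members whose rap1 ts arrays all lay above the wild type were the alpha genes PRE9 and PRE6, the base genes RPT1 and RPT6 and the lid genes RPN6, RPN9, RPN11 and SEM1. Several of these are singled out after their values were seen. RPN6, which stabilises the contact between lid and core, had 5693, 5843 and 6050 in rap1 ts, against 4388, 2999 and 5255 in the wild type (log2 0.51, limma adjusted p = 0.24, 0.081 with the block). RPT6 had 10358, 9362 and 9288 in rap1 ts, against 7986, 8026 and 7402 in the wild type (log2 0.31, adjusted p = 0.355, 0.192 with the block). None of these genes except PRE9 and SEM1 was called in either fit.

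The 3 assembly or associated genes were all above 0 in rap1 ts, with ECM29 called with the block. UMP1, the chaperone that completes core assembly and is then degraded, had 1385, 2020 and 2216 in rap1 ts, against 1268, 989 and 1544 in the wild type (log2 0.55, SE 0.27, limma adjusted p = 0.245, 0.0951 with the block). RPN14, a chaperone of base assembly, had 520, 689 and 659 in rap1 ts, against 497, 401 and 574 in the wild type (log2 0.34, SE 0.26). In abf1 ts, UMP1 was at 0.03 and RPN14 at 0.13.

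The median log2 fold change of the regulatory particle genes was above that of the core genes in rap1 ts. It was 0.36, with 17 of 19 genes above 0, against 0.11 and 9 of 14 for the core. Core minus regulatory was -0.25, and -0.28, -0.33 and -0.14 in the 3 pairs (mean -0.25, SD 0.10, n = 3). Without the wild-type array of pair 2 it was -0.12, without the mutant array of pair 1 it was -0.16, and with quantile scaling it was -0.15. For abf1 ts the core and regulatory medians were 0.09 and 0.11, and the pairs gave -0.07, 0.07 and 0.10 (SD 0.09, n = 3). Between the wild types, rap1 over abf1, core minus regulatory was 0.15, and 0.01, 0.19 and 0.11 in the pairs (SD 0.09, n = 3). By array, core minus regulatory deviation was -0.10, 0.06 and -0.09 in rap1 ts, against 0.05, 0.27 and -0.01 in its wild type. It was -0.19, 0.04 and 0.03 in abf1 ts, against -0.14, -0.09 and -0.08 in that wild type. The rap1 ts values thus overlapped those of the 3 other groups, and the rap1 wild type held the highest value. The genes were chosen with earlier results known, so these medians are descriptions with no test.

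**Figure D3:**
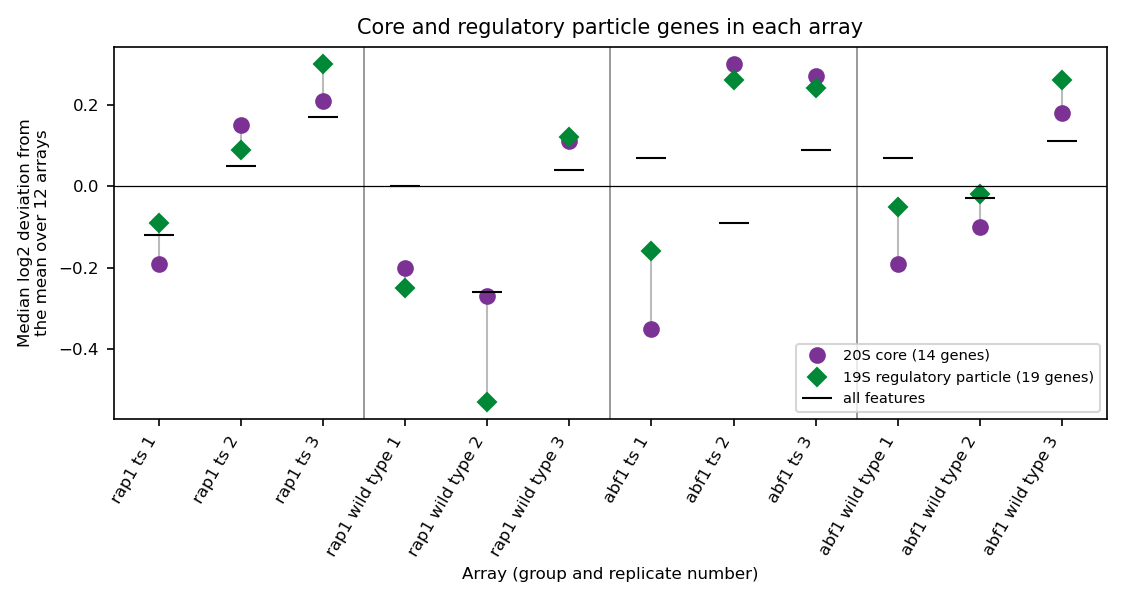
Median deviation (vertical axis, log2, from each gene's mean over 12 arrays) of the 14 core genes and the 19 regulatory particle genes in each array (horizontal axis, by group and replicate number), with dashes for all features. The largest gap is in the wild-type array of pair 2 of the rap1 series, at -0.27 for the core and -0.53 for the regulatory particle.

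By array, the members' median deviation from their own means was -0.16, 0.10 and 0.30 in rap1 ts, against -0.24, -0.43 and 0.10 in its wild type. In abf1 ts it was -0.21, 0.29 and 0.24, against -0.06, -0.10 and 0.20 in that wild type. The first array of all 4 groups, wild types included, was thus below 0 and the third array of all 4 groups was above 0. The median over all features was also above 0 in the third arrays, at 0.17, 0.04, 0.09 and 0.11 in the same order. It was -0.12 in the first rap1 ts array and -0.26 in the second rap1 wild-type array, but 0.07 in the first abf1 ts array. The rap1 wild type had the lowest group mean for 25 of the 37 genes (67.6%, against 38% of all features). The highest mean was in rap1 ts for 18 genes (48.6%, against 37.1% of all features) and in abf1 ts for 14 (37.8%, against 23.2%).

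**Figure D4:**
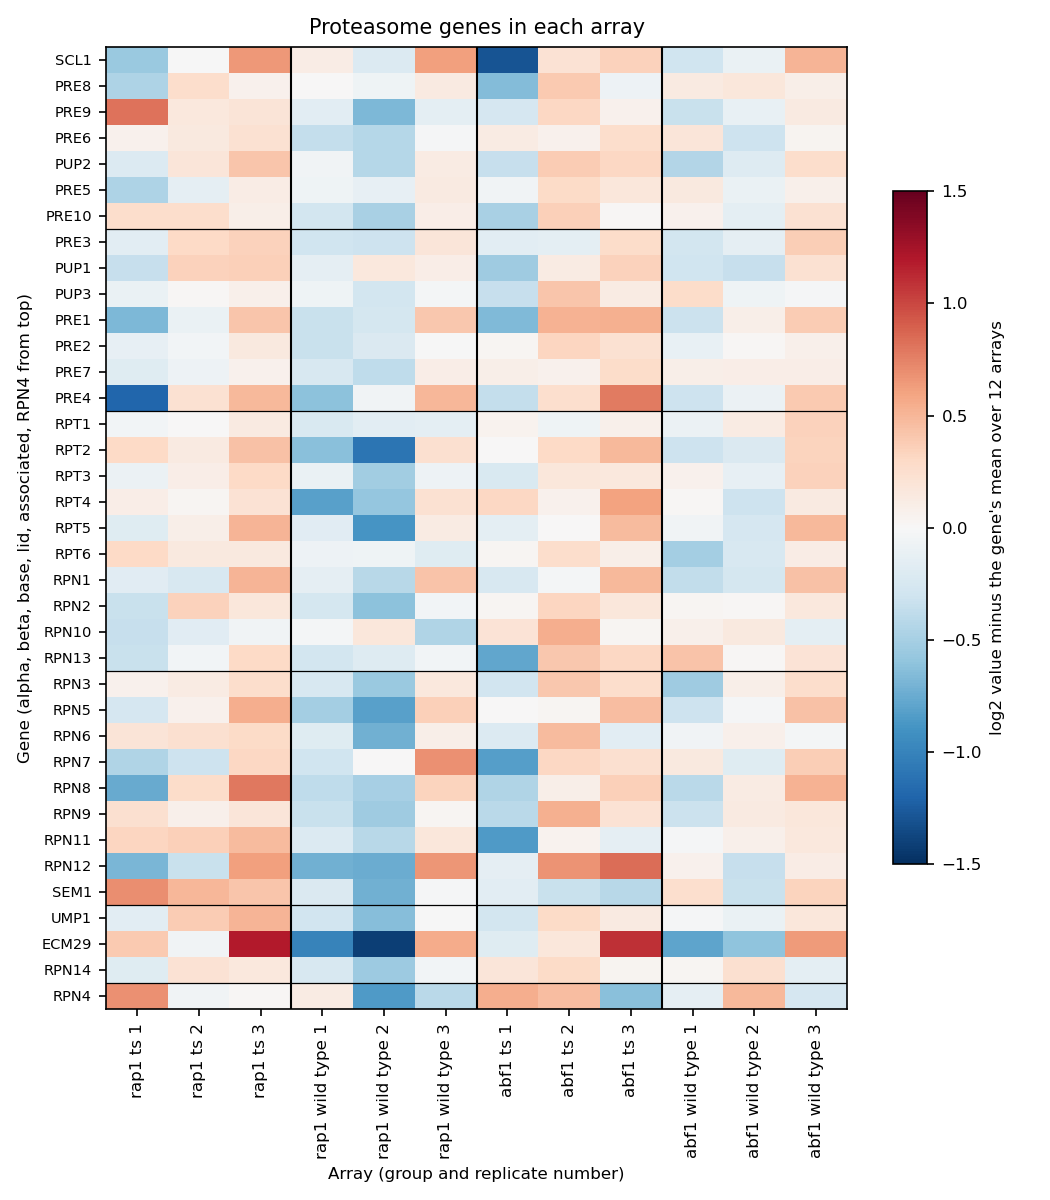
Log2 value minus the gene's mean over 12 arrays (colour, red higher and blue lower) for each of the 37 genes (rows, by part of the complex) in each array (columns, by group and replicate number). The wild-type array of pair 2 of the rap1 series holds the lowest value of 20 genes.

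The abf1 ts mutant had no called proteasome gene. Of the 37 genes, 27 lay above 0 (73%, against 45.5% of all features), with a median of 0.10 against -0.03. With limma, 0 were called without the block (0.0427% of all features) and 0 with it (0.213% of all features). At an unadjusted p under 0.05 there were 0 members without the block and 1 with it, ECM29. Of all features, 13 were higher and 132 lower at that p without the block, and 80 higher and 273 lower with it. The groups overlapped for all 37 genes, where 7.62% of all features did not overlap. The pair medians were -0.06, 0.37 and 0.02, against 0.01, -0.08 and -0.02 for all features. Without the third abf1 ts array, 17 of the 37 genes lay above 0 and the median was -0.02. Without the first, 33 did and the median was 0.20, and with median centring 22 did.

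The effect of rap1 ts minus the effect of abf1 ts was tested in one fit over all 12 arrays, and uses the same arrays as both comparisons. The median over the members was 0.23, against 0.13 for all features. Without the block, 0 members were called by limma, as were 0% of all features. The 2 members with an unadjusted p under 0.05 were SEM1 and RPN11, both higher. At that p, 385 of all 4687 features were higher and 211 lower. With the block, SEM1 was called higher (2.7% of the members, where 6.21% of all features were called higher). Its difference was 1.24 on the log2 scale (SE 0.36, limma adjusted p = 0.278 without the block and 0.0412 with it). With the block, it was not called under quantile scaling, with no variance trend or without any 1 of the 3 pairs. RPN11 had 4615, 4728 and 5123 in rap1 ts and 3200, 2768 and 4153 in its wild type, against 2045, 3832 and 3365 in abf1 ts and 3642, 3880 and 4118 in that wild type. Its difference was 0.91 (SE 0.36, adjusted p = 0.371, 0.0629 with the block).

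The rap1 wild type was lower than the abf1 wild type for 31 of the 37 genes, and for 2934 of all 4687 features. The median was -0.24, against -0.11 for all features. Both groups also serve as controls above. With limma, 0 members were called without the block and 0 with it, as were 0% of all features in both fits. In either fit, 0 members had an unadjusted p under 0.05. Of all features, 18 were higher and 138 lower at that p without the block, and 98 higher and 426 lower with it. The base genes RPT1, RPN2 and RPN13 (8.11% of the members) were lower in all 3 rap1 wild-type arrays than in all 3 abf1 wild-type arrays, where 7.19% of all features were. RPN2 had 3312, 2608 and 3873 in the rap1 wild type and 4088, 4042 and 4442 in the abf1 wild type (log2 -0.38, SE 0.23, adjusted p = 0.965). Without the second rap1 wild-type array the member median was -0.11, and without the third it was -0.38. Median centring moved the median of all features in this comparison by 0.11, to 0, and left the members at -0.13 with 10 of 37 above 0.

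Other genes of the pathway were read from lists outside the members. One list held further assembly and associated factors, such as the base chaperones NAS2, NAS6 and HSM3 and the core activator BLM10. Of its 13 genes tested, 9 lay above 0 in rap1 ts (median 0.17) and 10 in abf1 ts (median 0.19). Of all features, 55.9% lay above 0 in rap1 ts and 45.5% in abf1 ts. In either fit, 0 of the 13 were called. Of 21 genes for ubiquitin, its ligases and shuttle factors, 12 lay above 0 in each mutant (medians 0.11 in rap1 ts and 0.12 in abf1 ts). With limma, 0 were called without the block in either mutant, and 2 of the 21 rose with it in rap1 ts, where 15.0% of all features were called higher. UBR1, the ligase of the N-degron pathway, had 4175, 3919 and 4619 in rap1 ts, against 3271, 1936 and 2893 in the wild type (log2 0.68, adjusted p = 0.207, 0.0468 with the block). SHP1, a cofactor of the Cdc48 unfolding enzyme, had 8681, 10158 and 9257 in rap1 ts, against 6351, 6458 and 6756 in the wild type (log2 0.52, adjusted p = 0.123, 0.0323 with the block). The largest falls of this list in rap1 ts were not called. RSP5 was at -1.02 (limma adjusted p = 0.281, 0.109 with the block), above 0 in 0 of 3 pairs. SAN1 was at -0.77 (limma adjusted p = 0.276, 0.0537 with the block), also above 0 in 0 of 3 pairs. Of the regulators that act on RPN4 (YAP1, PDR1, PDR3 and HSF1), 0 of 4 were called in either mutant and either fit, with medians of 0.01 in rap1 ts and 0.31 in abf1 ts.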

How the data were processed

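The authors deposited linear MAS5 intensity values per probe set (MAS5 is named in the submitters' processing notes, without version or settings). Of 9335 probe sets, 60 were controls, 6504 named 1 gene, 328 several and 2443 none here. Each gene was read from its probe set of highest mean (34 members had 1; ECM29 had 8, RPT5 4 and PRE3 3). The offset of 13 is the 10th percentile of the non-control values. Features under the 20th percentile of the mean log2 value (8.16) were left out, which left 4687 of 5859. limma 3.58.1 in R 4.3.3 fitted the 4 group means with a variance trend and Benjamini-Hochberg adjustment, and the code was tested on simulated data. The number of arrays limits the precision.

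Deviations of same-numbered arrays from their group means correlated at 0.25 to 0.824, and 12 of 12 arrays were closest to their own number, so the numbers were taken to pair the arrays. The lowest value, 0.25, was that of pair 2 of the rap1 series, where pairs 1 and 3 had 0.562 and 0.583. The pairing comes from the data, not from the labels. The members, lists and tests were chosen with earlier results of these data known. Members named in the text are those called in any fit, the highest and lowest of each part of the complex in each mutant, and RPN4, UMP1, ECM29 and SEM1. RPN6, RPT6, RPN11, RPN2, PUP1 and PRE2 were named outside this rule, after their values were seen, as were genes whose groups did not overlap. From the other lists, up to 3 called genes each were described, and RSP5 and SAN1 were added after their values were seen. Promoter motifs were not analysed here. Alternatives were quantile scaling, median centring, other offsets and filters, the mean over probe sets, no variance trend, the replicate block and leaving out each array.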

Additional observations from a re-analysis of the deposited data

Results flagged for a closer look

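SEM1, the small lid subunit gene, was called as different between the mutants only with the replicate block, where 6.21% of all features were called higher. The rap1 ts effect minus the abf1 ts effect was 1.24 on the log2 scale (limma adjusted p = 0.278 without the replicate block and 0.0412 with it). Its log2 fold change was 0.85 in rap1 ts, above 0 in 3 of 3 pairs, and -0.38 in abf1 ts, above 0 in 1 of 3 pairs. CDC40, the adjacent gene that was tested, had a log2 fold change of -0.24 in rap1 ts (adjusted p = 0.567 with the block). With the block, leaving out any 1 pair ended the call of the SEM1 difference, at values of 1.19 to 1.27. Quantile scaling (limma adjusted p = 0.0515) and no variance trend (0.0502) also ended it.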

How the results depend on the processing

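With 3 arrays a group, the number of arrays limits every value. The replicate block moved the members called from 0 to 4 in rap1 ts and from 0 to 1 in the difference of the effects, and changed no other call of a member. With the block, leaving out a pair left 0 to 1 members called in rap1 ts, and 0 in the difference, as did quantile scaling (0) and no variance trend (0); these combinations were chosen after seeing the data. Over all alternatives, all features called ran from 3 to 1171 in rap1 ts (1171 with the block, against 19), from 0 to 10 in abf1 ts (against 2) and from 0 to 426 in the difference (426 with the block, against 0). With the block, RPT2 was lost under quantile scaling (adjusted p = 0.0561) and PRE9 under median centring (0.0729).

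Core minus regulatory was -0.15 in rap1 ts with quantile scaling; leaving out single arrays gave -0.34 to -0.12 in rap1 ts and -0.05 to 0.08 in abf1 ts. The member median of the rap1 over the abf1 wild type ran from -0.38 to -0.11, the rap1 ts member median from 0.19 to 0.46 and the abf1 ts median from -0.02 to 0.2. Quantile scaling turned RPN12 in rap1 ts to -0.01 and, in abf1 ts, PRE3 to just under 0 (0 when rounded) and PUP3 to -0.03. Median centring turned PRE3 to -0.04, PUP3 to -0.05 and UMP1 to -0.02 in abf1 ts. The mean over probe sets turned PRE3 to -0.12 in rap1 ts. The cause was not tested. ECM29 was not kept by a filter at the 50th percentile, nor by the filter when its 8 probe sets were averaged, and has no value there.

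Leaving out single arrays also turned the sign of uncalled genes. In rap1 ts the values ran from -0.45 to 0.15 for SCL1, -0.28 to 0.01 for PRE5, -0.43 to 0.41 for PRE4, -0.26 to 0.05 for RPN10, -0.02 to 0.3 for RPN13 and -0.24 to 0.6 for RPN12. In abf1 ts they ran from -0.57 to 0.25 for SCL1, -0.14 to 0.2 for PRE3, -0.17 to 0.21 for PUP3, -0.05 to 0.52 for PRE4, -0.45 to 0.14 for RPN13, -0.41 to 0.16 for RPN7, -0.09 to 0.2 for UMP1 and -0.12 to 0.47 for RPN4.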

Other observations

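The proteasome genes lie on 13 chromosomes, and 0 of the 37 are adjacent to another member. Of their 60 tested neighbours, 15 were called in rap1 ts with the block, in either direction, as were 1171 of all 4687 features. RPT2 lies beside PTC1, a phosphatase gene with a log2 fold change of 1.08 in rap1 ts (limma adjusted p = 0.153, 0.0102 with the block). PRE9 lies between CAF130, at -0.21 (adjusted p = 0.649, 0.458 with the block), and LSB1, at -1.27 (adjusted p = 0.175, 0.037 with the block). The neighbours of ECM29, GOS1 and OCA5, were at 0.05 and 0.11. These neighbours were chosen after their values were seen.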
